A study of Mus musculus with 4 samples.

Results

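The oocyte and preimplantation multicopy families were taken by name from the deposited gene table as every row whose symbol begins with Prame, Nlrp4, or Obox or Oog followed by a digit, together with Nlrp2, Nlrp5, Nlrp9a, Nlrp9b, Nlrp9c, Nlrp14, Oosp1, Omt2b, Zar1 and Zp3. The rule gave 123 of 49997 gene rows. These were 49 Prame rows, 53 Obox rows, 4 Oog rows, 7 Nlrp4 rows, 6 other Nlrp rows and 4 single genes. By the annotation, 49 of the 123 rows are pseudogenes. The RNA came from E14 mouse embryonic stem cells (ESCs) that had been infected with a lentivirus, selected with puromycin and kept as stable lines, carrying either a scrambled hairpin (shScramble, 2 libraries) or a hairpin against Ythdf2 (shYthdf2, 2 libraries). Per the study's methods, the ESCs of both groups carry a tdTomato transgene under the MERVL promoter, and the hairpin vector encodes a red fluorescent protein and puromycin resistance. A pair of hairpins against Ythdf2 is listed there, and which of them each library carried, and whether the replicates came from separate infections, is not given in the sources used here.

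These families are best known from the egg and the early embryo. PRAME proteins are leucine-rich repeat proteins expressed in germ cells and early embryos, with many recent copies in the mouse. OBOX proteins are homeodomain factors of the oocyte and the cleaving embryo, Oog1 and its relatives (oogenesins) are PRAME relatives of the oocyte, and the Nlrp genes listed here include maternal-effect genes whose products are stored in the egg. YTHDF2 binds N6-methyladenosine on mRNA and promotes decay of the bound transcripts. The question put to these rows was whether knockdown of Ythdf2 (Ythdf2-KD), studied for its effect on 2-cell-like (2C-like) cells in ESC cultures, was accompanied by changes in this wider set.

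The libraries held 31113006 to 36422510 counted reads, and between 25155 and 25745 rows had a read. Ythdf2 itself was counted at 3365 and 2760 reads in shScramble and at 1086 and 1082 in shYthdf2 (log2 fold change -1.55, SE 0.11, edgeR adjusted p = 0.00069). The ESC markers Pou5f1, Sox2, Nanog, Klf4, Zfp42 and Esrrb summed to 4627 and 4295 CPM (counts per 1000000 reads) in shScramble and to 4417 and 4076 in shYthdf2, and none of the 6 passed the test. The log2 fold change was -0.41 for Nanog (edgeR adjusted p = 0.0594) and -0.17 for Sox2. It was -0.09 for Klf4, -0.01 for Zfp42, 0.04 for Esrrb and 0.13 for Pou5f1. Oocyte markers were nearly absent. Gdf9, Bmp15, Zp1, Zp2, Figla and Nobox summed to 2.72 and 1.46 CPM in shScramble and to 1.49 and 1.09 in shYthdf2, and Zp1 had no read. These CPM, and all below, were scaled by TMM.

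The families differed in how far they were detected, with Obox and Oog rows mostly silent and Prame and Nlrp rows often read. Of the 123 rows, 59 had no read in any library and 64 had at least 1, which is 52.0% against 61.1% of all rows. 31 had a read in all 4 libraries, 20 averaged at least 1 CPM (16.3%, against 28.9% of all rows), and 29 passed the filter on low counts and entered the test. A row with no read in a library is bounded by 3 reads, or 0.083 to 0.095 CPM, which covers counting error only. This bound is too narrow, since the reads of a pair were counted separately and are not independent. The rows passing the filter were 18 of the 49 Prame rows, 5 of 7 Nlrp4 rows, 3 of 6 other Nlrp rows, 2 of 53 Obox rows, Zp3 alone of the single genes, and 0 of 4 Oog rows. By library, 38 and 36 rows had a read in shScramble and 49 and 55 in shYthdf2, so both shYthdf2 libraries detected more rows than either control. Over all 49997 rows the counts were 25488 and 25155 in shScramble and 25247 and 25745 in shYthdf2. Of the 123 members, 22 had reads in shYthdf2 alone and 5 in shScramble alone, against 2717 and 2513 of all 49997 rows. Of the 22, 12 were Obox pseudogene rows with few reads.

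**Figure D1:**
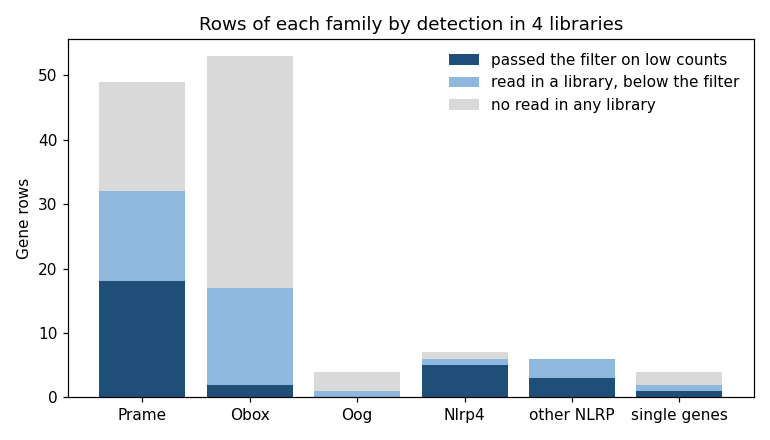
Number of gene rows (y axis) in each family (x axis), stacked by whether a row passed the filter on low counts, had a read but fell below it, or had no read in any of the 4 libraries. Obox is the largest family with 53 rows, of which 2 passed, and Prame follows with 49 rows, of which 18 passed.

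Several genes known from the egg had few or no reads. Oosp1, an oocyte secreted protein, and Omt2b, an oocyte maturation transcript, had 0 reads in all 4 libraries. Zar1, which is needed for the passage from egg to embryo, had 2 reads in shScramble replicate 2 and 0 in the other libraries. Nlrp5 (MATER), a member of the subcortical maternal complex of the egg, had 8 and 0 reads in shScramble and 8 and 2 in shYthdf2. Nlrp2 had 0 and 0 against 1 and 3 reads, and Nlrp9a 0 and 0 against 0 and 2. Of the oogenesins, Oog1 had 4 and 0 reads in shScramble and 1 and 3 in shYthdf2, and Oog2, Oog3 and Oog4 had none. Differences in these rows were not detectable at this depth.

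Family totals were compared next, each total being the summed CPM of all rows of the family in a library. With 2 libraries a group, totals are given with their spread and without a test. The members as a whole summed to 286 and 235 CPM in shScramble and to 267 and 244 CPM in shYthdf2, so the groups overlapped and the log2 ratio of the means was -0.03. The families did not share a direction. The Nlrp4 total was 94.6 and 76.5 CPM in shScramble and 54.6 and 36.7 CPM in shYthdf2, means of 85.5 ± 12.8 and 45.6 ± 12.6 (SD, n = 2), and both shYthdf2 libraries lay below both controls (log2 ratio -0.91). Nlrp4c held 61.4% of the Nlrp4 reads, and without it the ratio was -0.52. The single genes, of which Zp3 gave 99.7% of the reads, summed to 2.78 and 1.59 CPM in shScramble and to 7.99 and 6.71 in shYthdf2, means of 2.18 ± 0.841 and 7.35 ± 0.905 (SD, n = 2), a log2 ratio of 1.75 with no overlap.

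The Prame total was 166 and 138 CPM in shScramble and 185 and 184 CPM in shYthdf2, means of 152 ± 19.6 and 184 ± 0.770 (SD, n = 2). Both shYthdf2 libraries lay above both controls, but the log2 ratio of 0.28 was close in size to the gap between the controls, where replicate 2 stood at a log2 ratio of -0.26 to replicate 1. Leaving out shScramble replicate 1 gave 0.41 and leaving out shScramble replicate 2 gave 0.15. The ratio was 0.45 without Pramel12, the most abundant row, and 0.53 when reads were first divided by gene length, where rows that also lie on another contig have too great a length. The total of the other Nlrp rows overlapped between groups, with 21.3 and 15.5 CPM in shScramble and 17.6 and 13.9 CPM in shYthdf2 (log2 ratio -0.23), and without its most abundant row, Nlrp14, the ratio turned to 0.87. The Obox total overlapped as well, with 1.05 and 2.60 CPM in shScramble and 1.73 and 2.96 CPM in shYthdf2 (log2 ratio 0.36). Here the direction rested on single libraries, since the ratio was -0.15 without shScramble replicate 1, 1.15 without shScramble replicate 2, 0.70 without shYthdf2 replicate 1 and -0.08 without shYthdf2 replicate 2.

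**Figure D2:**
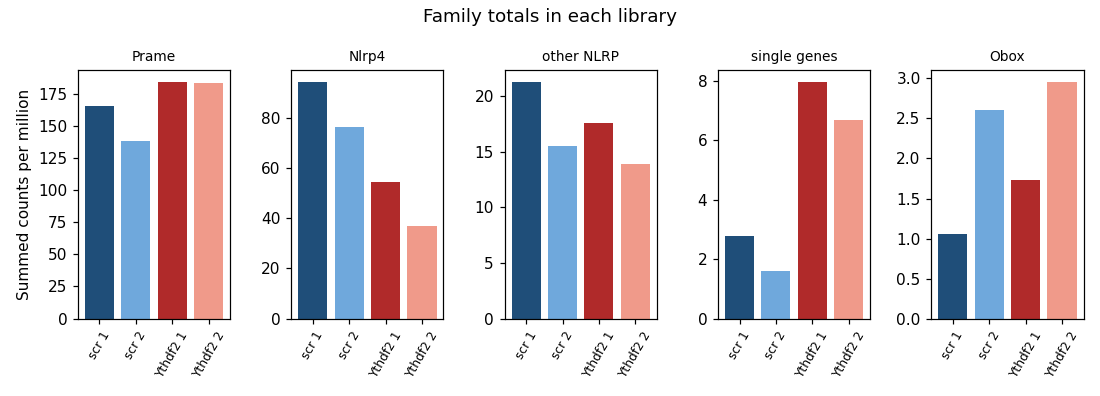
Summed CPM (y axis, a separate linear scale from 0 in each panel) of 5 families in each library (bars; scr is shScramble and Ythdf2 is shYthdf2, with the replicate number). The Nlrp4 total is lower and the Prame and single-gene totals are higher in both shYthdf2 bars, while the other NLRP and Obox totals overlap; Oog is not drawn, since it had at most 4 reads in a library.

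Row by row, edgeR's quasi-likelihood F test over 18341 rows, with Benjamini-Hochberg adjustment over all of them, called 5 of the 29 tested members at an adjusted p under 0.05, which is 17.2% against a background of 3.91% of all rows tested. 2 were higher in shYthdf2 (background 2.43%) and 3 were lower (background 1.49%). Zp3 and Pramel19 rose, and Pramel3, Nlrp4c and Nlrp4f fell. The number higher was 1 with library totals as scaling (without Pramel19), 4 without shYthdf2 replicate 2, 6 without shScramble replicate 2, 7 without shScramble replicate 1 and 10 without shYthdf2 replicate 1, and the number lower was 3, 4, 3 and 6 in the same 4 omissions, where the lone library of a group was assumed to vary like the other group. At an unadjusted p under 0.05 there were 13 members higher (background 11.0%) and 5 lower (background 9.80%). The groups did not overlap for 16 members that were higher (background 26.2%) and 6 that were lower (background 25.5%). The median log2 fold change of the 29 was 0.79, beside 0.00 over all rows tested, a description only, since a row that is high in 1 group can pass the filter through that group.

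DESeq2 gave an adjusted p to 24 members and called 5 of them higher (background 5.08%) and 3 lower (background 3.82%). Its higher calls were Zp3, Pramel13, Pramel14, Pramel30 and Nlrp4a, and its lower calls were Pramel3, Nlrp4f and Nlrp14. By the criteria of the study's methods (DESeq2, p of 0.05 or less before adjustment, log2 change of 1 or more either way), 7 of the 64 members with a read were higher (background 1.63%) and 2 were lower (background 1.25%). Zp3 and Pramel3 were called under each of these rules, Pramel19 and Nlrp4c were not called by DESeq2's adjusted p, and Nlrp4f did not reach the fold limit.

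**Figure D3:**
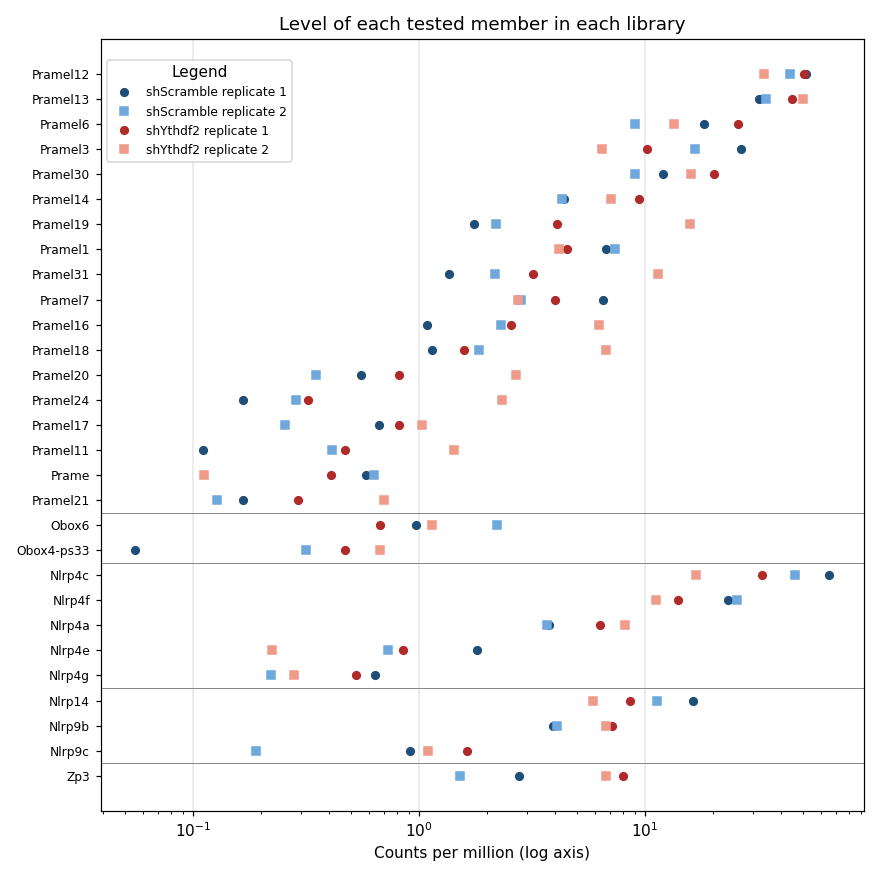
Level in CPM (x axis, log axis) of each of the 29 tested members (y axis), with 1 point for each of the 4 libraries, grouped by lines into Prame, Obox, Nlrp4, other NLRP and single genes. Nlrp4c, Nlrp4f, Nlrp14 and Pramel3 lie lower in both shYthdf2 libraries, Zp3 lies higher in both, and Pramel19, Pramel31 and Pramel24 are highest in shYthdf2 replicate 2 alone.

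Zp3 encodes a zona pellucida glycoprotein, part of the coat around the egg to which sperm bind. It lies on chromosome 5 from 135980105 to 135988624 on the plus strand (mm10). Zp3 had 100 and 48 reads in shScramble and 273 and 240 in shYthdf2, or 2.78 and 1.52 against 7.99 and 6.71 CPM. Both shYthdf2 libraries were well above both controls and close to each other. The log2 fold change was 1.76 (SE 0.32, edgeR adjusted p = 0.0212), and it ranged from 1.40 to 2.27 over the 12 other settings tried, passing in all 12. The other zona genes listed were at or near 0. Zp1 had no read, and Zp2 had 2 and 0 reads in shScramble and 2 and 0 in shYthdf2. The 250 bases before to 50 bases after the start of Zp3 (RefSeq, GRCm38.p6, chr5:135979855-135980154, plus strand) are shown since Zp3 was the most stable rise, with the E-box CACGTG, which the oocyte factor FIGLA is known to read in zona genes, in capitals.
Zp3: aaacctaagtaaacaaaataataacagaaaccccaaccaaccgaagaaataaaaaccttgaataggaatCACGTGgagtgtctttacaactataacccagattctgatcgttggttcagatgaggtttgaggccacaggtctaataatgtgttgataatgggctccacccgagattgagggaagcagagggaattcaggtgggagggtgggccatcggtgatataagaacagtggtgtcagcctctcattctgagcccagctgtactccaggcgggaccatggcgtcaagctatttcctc
This motif was chosen after the promoter had been seen. It was searched on both strands and found once here, beginning at position -181 with the start site at 0, in 7.09% of the 27025 promoters in the RefSeq table and in 1 of the 62 members matched to it. Figla, counted at 0 and 2 reads in shScramble and at 1 and 0 in shYthdf2, was at or near 0.

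Among the Nlrp4 rows, relatives of human NLRP4, the pair with the most reads fell and no other row passed the test. Nlrp4c (chromosome 7, 6045161 to 6105149, plus strand) had 2346 and 1456 reads in shScramble and 1122 and 601 in shYthdf2, or 65.1 and 46.2 against 32.8 and 16.8 CPM. The replicates of each group lay apart, but both shYthdf2 libraries were below both controls. The log2 fold change was -1.17 (SE 0.27, edgeR adjusted p = 0.0456), with -0.76 without shYthdf2 replicate 2, -1.73 without shYthdf2 replicate 1 and a DESeq2 adjusted p of 0.166. Nlrp4f (chromosome 13, 65177111 to 65205716, minus strand), known from the egg's subcortical maternal complex, had 836 and 807 reads in shScramble and 479 and 402 in shYthdf2. The replicates of Nlrp4f lay close together, and the log2 fold change was -0.95 (SE 0.17, edgeR adjusted p = 0.0212). It passed in 11 of 12 other settings, missing the study's fold limit. Nlrp4a had 135 and 116 reads in shScramble and 217 and 291 in shYthdf2, so that both shYthdf2 values were higher, a log2 fold change of 0.96 (SE 0.25) that did not pass (edgeR adjusted p = 0.0675), though it passed without shYthdf2 replicate 1 (1.13). Nlrp4e had 65 and 23 against 29 and 8 reads and Nlrp4g 23 and 7 against 18 and 10, and both overlapped between the groups. Nlrp4b had 2 reads in shYthdf2 replicate 2 alone and Nlrp4d had none.

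Of the other Nlrp rows, 3 were tested and none passed. Nlrp14, a gene of the egg and of male germ cells, had 585 and 355 reads in shScramble and 293 and 210 in shYthdf2. Its levels did not overlap between the groups (16.2 and 11.3 against 8.57 and 5.87 CPM), and the fitted log2 difference was -0.93 (SE 0.26, edgeR adjusted p = 0.0757), passing at -1.17 without shScramble replicate 2 and at -1.23 without shYthdf2 replicate 1. Nlrp9b, otherwise known as an RNA sensor of the gut epithelium, had 141 and 129 reads in shScramble and 244 and 240 in shYthdf2. Its 2 libraries of each group were nearly equal, and the log2 fold change was 0.79 (SE 0.24, edgeR adjusted p = 0.101). Nlrp9c had 33 and 6 against 56 and 39 reads, a fitted log2 difference of 1.27 (SE 0.65, edgeR adjusted p = 0.303) that was 2.82 without shScramble replicate 1 (edgeR adjusted p = 0.0167) and 0.57 without shScramble replicate 2.

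Per kilobase of gene length, Nlrp4c stood at 15.4 ± 3.70 CPM per kilobase in shScramble against 6.86 ± 3.14 in shYthdf2 (SD, n = 2) and Pramel13 at 11.4 ± 0.595 and 16.5 ± 1.27, so their order turned between the groups. Pramel6 stood at 6.58 ± 3.15 and 9.41 ± 4.19, and Nlrp4f at 6.92 ± 0.482 and 3.58 ± 0.557. Pramel6 and Nlrp4f did not differ beyond their spread in shScramble. Rows that also lie on another contig, such as Pramel12 and Pramel30, were not compared, since the deposited length adds up their copies. Transcript windows of 150 bases were used to ask whether reads of a row could also be placed elsewhere, since such reads were not counted. Nlrp4c, Nlrp4f, Nlrp4a, Nlrp14, Nlrp9b and Zp3 shared 0.0% of their windows with another gene's transcripts in GENCODE vM21, so these rows are as countable as single-copy genes by that measure.

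Of the Prame rows, 25 lie on chromosome 4, 18 on chromosome 5, 3 on chromosome X, 2 on chromosome 2 and 1 on chromosome 12. The chromosomes differed in their totals. Prame rows on chromosome 4 summed to 114 and 109 CPM in shScramble and to 144 and 160 CPM in shYthdf2, means of 111 ± 3.63 and 152 ± 11.3 (SD, n = 2), a log2 ratio of 0.45 with no overlap. On chromosome X the total was 27.1 and 17.2 against 10.6 and 6.54 CPM, a log2 ratio of -1.37 with no overlap. On chromosome 2 it was 24.8 and 11.9 against 29.7 and 16.1 CPM, and the groups overlapped. The 18 rows on chromosome 5 had 4 and 4 reads in all against 11 and 11. Pramel36, Pramel37, Pramel49 and Pramel50 among them shared all of their windows with other transcripts, so that reads from them would have been left out of the counts.

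Pramel3, an X-linked member (chromosome X, 135302289 to 135312636, plus strand), gave 97.2% of the reads on that chromosome. It had 956 and 523 reads in shScramble and 348 and 230 in shYthdf2. The controls were far apart, but both lay above both shYthdf2 libraries, and the log2 fold change was -1.38 (SE 0.27, edgeR adjusted p = 0.0289), between -1.75 and -0.999 over the 12 other settings and past the test in all 12. 49.6% of the windows of Pramel3 were shared, chiefly with Gm5128, so its count leaves out part of its reads. Prame itself had 21 and 20 reads in shScramble and 14 and 4 in shYthdf2 (log2 fold change -1.22, SE 0.73, edgeR adjusted p = 0.380). Pramel6 and Pramel7, on chromosome 2, are known from naive pluripotent cells. Pramel6 had 659 and 285 reads in shScramble and 878 and 479 in shYthdf2, and Pramel7 had 235 and 89 against 136 and 98. In both, the libraries numbered 1 were higher than those numbered 2 and the groups overlapped (log2 fold change 0.51 with edgeR adjusted p = 0.450, and -0.48 with edgeR adjusted p = 0.541). Pramel6 passed at 1.11 without shScramble replicate 1 and at 0.91 without shYthdf2 replicate 2, and was at 0.09 without shScramble replicate 2 and -0.03 without shYthdf2 replicate 1. Of their relatives on chromosome 4, Pramel4 had no read and Pramel5 had 6 and 2 against 2 and 8.

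On chromosome 4, 14 of 25 Prame rows were tested, 3 of them between 101834969 and 101943183 (Pramel17, Pramel18 and Pramel19) and 11 between 143394441 and 144408467. Of the 14, 1 was called higher (background 2.43%) and 0 lower (background 1.49%), and at an unadjusted p under 0.05 10 were higher (background 11.0%) and 1 was lower (background 9.80%). They are described in 2 patterns, set after the values were seen. In the first, shYthdf2 replicate 2 was more than 2-fold above shYthdf2 replicate 1. Pramel19 (101940407 to 101943183, plus strand) had 63 and 69 reads in shScramble and 140 and 569 in shYthdf2, or 1.75 and 2.19 against 4.10 and 15.9 CPM. Both shYthdf2 libraries were above both controls, and replicate 2 was 3.88 times replicate 1. The log2 fold change was 2.35 (SE 0.53, edgeR adjusted p = 0.0416), and without shYthdf2 replicate 2 it was 1.06 (edgeR adjusted p = 0.0880), against 3.01 without shYthdf2 replicate 1. With library totals as scaling the adjusted p was 0.0503, and by DESeq2 it was 0.0908. 34.6% of the windows of Pramel19 were shared with other transcripts.

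Pramel31 had 49 and 68 reads in shScramble and 109 and 410 in shYthdf2 (log2 fold change 2.06, SE 0.53, edgeR adjusted p = 0.0619), and the value was 0.86 without shYthdf2 replicate 2 and 2.71 without shYthdf2 replicate 1, passing in the 3 omissions other than that of shYthdf2 replicate 2. Pramel18 had 41 and 58 against 54 and 241 reads, and Pramel16 had 39 and 73 against 87 and 225. Pramel24 had 6 and 9 against 11 and 83 reads, the steepest fitted change of these rows (log2 fold change 2.54, SE 0.87, edgeR adjusted p = 0.136), and it was 0.51 without shYthdf2 replicate 2 and passed at 3.35 without shYthdf2 replicate 1. Each of these rows was highest in shYthdf2 replicate 2 by a wide margin, while shYthdf2 replicate 1 was nearer the controls. Pramel20 had 20 and 11 against 28 and 96 reads, Pramel11 had 4 and 13 against 16 and 51, and Pramel21 had 6 and 4 against 10 and 25. Of these 7 rows, none passed the test with edgeR's adjustment. Without shYthdf2 replicate 2 the log2 fold change was 0.09 for Pramel18, 0.59 for Pramel16, 0.84 for Pramel20 and 0.85 for Pramel11, and without shYthdf2 replicate 1 it was 2.18, 1.89, 2.55 and 2.45 and all 4 passed. Leaving out shScramble replicate 2 also gave calls for Pramel16 (2.03), Pramel18 (1.87) and Pramel24 (2.97), and leaving out shScramble replicate 1 one for Pramel20 (2.32). With Pramel19, 8 of the 14 tested rows on chromosome 4, 2 of the 3 and 6 of the 11, were more than 2-fold higher in shYthdf2 replicate 2 than in replicate 1 (57.1%), against 5.89% of all rows tested and against 0 of the other 15 tested members. In shScramble, 2 of the 14 were also more than 2-fold higher in replicate 2 and 1 was more than 2-fold lower. Over all 18341 rows tested these were 1023 and 668. Those 2 higher rows were Pramel16 (2.1 times, and 2.5 in shYthdf2) and Pramel11 (3.7 times, and 3.0 in shYthdf2). Their gap was thus not particular to shYthdf2. The pattern was set on these same values, so the shares describe it and do not test it. A row high in shYthdf2 can also pass the filter through that group, and the rows tested differ widely in reads. Rows below the filter are not in these shares. Among them, Pramel51 on chromosome 12 had 0 and 7 reads in shScramble and 4 and 23 in shYthdf2.

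The sum of the 2C markers, though not each part of it, moved with this pattern. The 31 rows of the list (rows named Zscan4, Usp17l and Tdpoz and 8 named genes, Duxf3 among them) summed to 102 and 150 CPM in shScramble and to 206 and 544 CPM in shYthdf2, with 6 of 24 tested rows called higher (background 2.43%), 0 called lower (background 1.49%) and 3 rows with no read. Duxf3 had 8 and 0 reads in shScramble and 12 and 52 in shYthdf2. In shYthdf2 replicates 1 and 2 the Zscan4 rows summed to 76.5 and 255 CPM, a gap of more than 2-fold. The gap was smaller than 2-fold for the Usp17l rows (45.7 and 80.1 CPM) and the Tdpoz rows (3.83 and 5.98 CPM). The sum in shYthdf2 replicate 2 was thus the highest, as for the 8 Prame rows. The part of these cells in the result was not tested, and in RNA from whole cultures more cells of a type and more RNA per cell cannot be told apart.

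**Figure D4:**
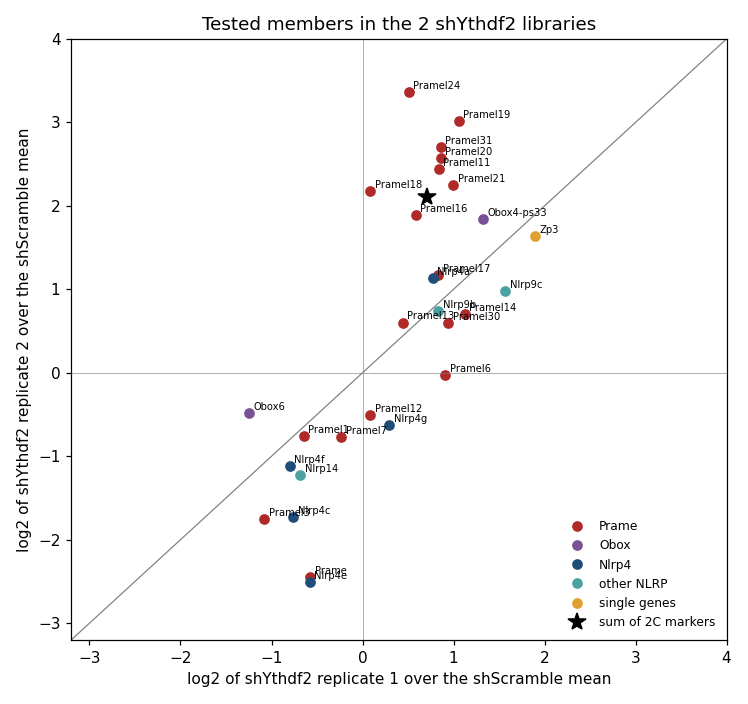
log2 of the level in shYthdf2 replicate 1 (x axis) and in shYthdf2 replicate 2 (y axis), each over the mean of the shScramble libraries, with 1 point for each of the 29 tested members coloured by family, the sum of the 2C markers as a star and the line of equal change in grey. Pramel24, Pramel19, Pramel31, Pramel20, Pramel11, Pramel21, Pramel18 and Pramel16 lie far above the line near the star, while Zp3, Nlrp9b, Nlrp4f, Pramel14 and Pramel30 lie near the line.

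In the second pattern the shYthdf2 replicates were less than 2-fold apart. Pramel12 had the widest gap of these rows, with shYthdf2 replicate 2 at 0.66 times replicate 1. Pramel13 had 1146 and 1079 reads in shScramble and 1536 and 1794 in shYthdf2 (log2 fold change 0.53, SE 0.13, edgeR adjusted p = 0.0517). Pramel30 had 434 and 284 against 692 and 571 reads (log2 fold change 0.78, SE 0.21, edgeR adjusted p = 0.0710), and Pramel14 had 157 and 135 against 322 and 252 (log2 fold change 0.93, SE 0.25, edgeR adjusted p = 0.0709). In these 3 rows both shYthdf2 libraries were above both controls, and DESeq2 called all 3 higher. Pramel13 also passed in edgeR with counts divided by 2 (adjusted p = 0.0477) and with a mean of at least 1 CPM (adjusted p = 0.0493). It did not pass with RLE scaling (edgeR adjusted p = 0.0544) or library totals (edgeR adjusted p = 0.0620). All 3 passed in edgeR with no filter and with the replicate number as a block. In edgeR, Pramel13 passed at 0.60 without shYthdf2 replicate 1, Pramel14 at 1.12 without shYthdf2 replicate 2, and Pramel30 at 1.01 without shScramble replicate 1 and at 0.94 without shYthdf2 replicate 2. Pramel1 went the other way, with 241 and 233 against 154 and 149 reads (log2 fold change -0.70, SE 0.24, edgeR adjusted p = 0.134). Pramel12, the row with the most reads of all members, had 1866 and 1382 against 1737 and 1206, and its groups overlapped (log2 fold change -0.18, SE 0.18, edgeR adjusted p = 0.633), though it passed at -0.51 without shYthdf2 replicate 1. Pramel17 had 24 and 8 against 28 and 37 reads (log2 fold change 0.99, SE 0.59, edgeR adjusted p = 0.384).

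Promoters were compared between rows. Of 120 pairs among the 16 tested Prame rows with a RefSeq promoter (250 bases before to 50 after the start, GRCm38.p6), Pramel14 and Pramel30 were the most alike, with 97.7% identity over 300 aligned positions, followed in identity by Pramel20 and Pramel31 with 92.6% over 271 and Pramel11 and Pramel24 with 87.0% over 300. Pramel18 has no entry in the table. The next pairs, Pramel14 and Pramel30 each with Pramel7, had 78.8% and 77.8% identity and were of unlike pattern, since the groups of Pramel7 overlapped (log2 fold change -0.48). The first of the 3 closest pairs belongs to the pattern shared by both shYthdf2 libraries, and the other two to the pattern led by shYthdf2 replicate 2. Pramel14 (chr4:143994320-143994619, minus strand) and Pramel30 (chr4:144329999-144330298, plus strand) are printed with the bases that differ from the partner in capitals.
Pramel14: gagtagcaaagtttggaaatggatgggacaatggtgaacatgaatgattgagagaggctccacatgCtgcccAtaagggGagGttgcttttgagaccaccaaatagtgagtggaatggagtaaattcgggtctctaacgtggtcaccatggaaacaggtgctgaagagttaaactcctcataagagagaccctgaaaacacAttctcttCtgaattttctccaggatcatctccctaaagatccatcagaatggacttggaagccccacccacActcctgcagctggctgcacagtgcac
Pramel30: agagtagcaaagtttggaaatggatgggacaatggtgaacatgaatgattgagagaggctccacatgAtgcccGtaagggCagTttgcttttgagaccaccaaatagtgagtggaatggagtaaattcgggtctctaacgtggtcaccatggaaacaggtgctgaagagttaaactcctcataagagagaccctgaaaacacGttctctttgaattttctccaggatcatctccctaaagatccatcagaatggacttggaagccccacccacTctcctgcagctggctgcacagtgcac
About equal shares of the transcript windows of Pramel14 (40.1%) and Pramel30 (40.3%) were shared, chiefly with each other, so their counts rest on the rest of each transcript.

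Pramel20 (chr4:143567217-143567516, plus strand) and Pramel31 (chr4:144357714-144358013, plus strand) are shown for the letters GATTNAATC in capitals, a palindrome close to the double site that the 2-cell factor DUX is known to bind.
Pramel20: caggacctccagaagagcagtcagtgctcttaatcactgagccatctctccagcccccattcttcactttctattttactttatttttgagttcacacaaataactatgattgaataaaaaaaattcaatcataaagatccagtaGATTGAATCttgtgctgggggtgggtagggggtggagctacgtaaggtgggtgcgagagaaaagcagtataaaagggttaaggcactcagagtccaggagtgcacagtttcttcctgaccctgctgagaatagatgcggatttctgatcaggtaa
Pramel31: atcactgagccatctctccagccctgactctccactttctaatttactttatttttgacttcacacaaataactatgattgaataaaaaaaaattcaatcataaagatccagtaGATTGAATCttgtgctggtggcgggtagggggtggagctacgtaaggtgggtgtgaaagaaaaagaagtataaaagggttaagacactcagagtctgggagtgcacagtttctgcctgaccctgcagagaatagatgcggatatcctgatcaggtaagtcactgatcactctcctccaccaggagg
The match begins at position -105 in Pramel20 and at position -136 in Pramel31, with the start site at 0. GATTNAATC, chosen after the promoters had been seen and searched on both strands, occurred in 75 of 27025 promoters (0.278%) and in 3 of 62 member promoters, which were Pramel20, Pramel31 and Pramel17. Pramel17 did not share their pattern, and Pramel19, Pramel16, Pramel24, Pramel11 and Pramel21, which did, had no match in this window. The homeobox motif GGATTA occurred in 9 of 62 member promoters (14.5%, against 7.23% of all) and TATAAA in 17 of 62 (27.4%, against 14.1% of all), Pramel20 and Pramel31 being among the latter. A match here describes the letters only.

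The Obox rows were nearly silent, and neither of the 2 tested rows passed. Obox6 (chromosome 7, 15833250 to 15839679, minus strand), a homeobox gene also known from pluripotent cells, had 35 and 70 reads in shScramble and 23 and 41 in shYthdf2, and the groups overlapped (log2 fold change -0.80, SE 0.52, edgeR adjusted p = 0.420), with -1.28 without shScramble replicate 1 and -0.09 without shScramble replicate 2. It gave 59.3% of the reads of the family. Obox1, Obox5 and Obox7 had no read, Obox2 had 2 in shYthdf2 replicate 2 and Obox3 had 2 in shScramble replicate 2. The rest came from pseudogene rows. The 38 rows named Obox4-ps, all on chromosome 7, summed to 3 and 10 reads in shScramble and to 34 and 61 in shYthdf2, so both shYthdf2 libraries held more than either control. Obox4-ps33 alone had 2 and 10 against 16 and 24 reads (log2 fold change 1.63, SE 0.83, edgeR adjusted p = 0.302; 0.84 without shScramble replicate 1 and 3.28 without shScramble replicate 2), and Obox4-ps27 had 0 and 0 against 4 and 5. Of the 47 Obox pseudogene rows, 12 had reads in shYthdf2 alone and 0 in shScramble alone, against 2717 and 2513 of all 49997 rows. None of the 12 held more reads than Obox4-ps27, and the reads of a pair were counted separately. By name these rows are copies of Obox3 (8), Obox4 (38) and Obox6 (1), and a read placed at several positions was not counted, so which copy a read came from is uncertain and no row is reported as changed.

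Other genes of the egg and the maternal store, from a list of 45 written from general knowledge, gave no single direction either. 17 were tested, 0 were called higher (background 2.43%) and 2 lower (background 1.49%), with a median log2 fold change of -0.28. The 2 were Tcl1, a coactivator of AKT present in ESCs and eggs, with 2501 and 2511 reads against 1404 and 1424 (log2 fold change -0.88, SE 0.12, edgeR adjusted p = 0.0066), and Brdt, a bromodomain gene of male germ cells, with 426 and 249 against 147 and 148 (log2 fold change -1.23, SE 0.26, edgeR adjusted p = 0.035). At an unadjusted p under 0.05, 3 of the 17 were higher (background 11.0%) and 6 lower (background 9.80%). Partners of Nlrp5 in the maternal complex were mixed, with Khdc3 at 1411 and 1234 against 2123 and 1656 reads (log2 fold change 0.47, edgeR adjusted p = 0.114), Ooep at 2282 and 2195 against 1787 and 2039 (-0.28, edgeR adjusted p = 0.202) and Tle6 at 144 and 142 against 128 and 171 (0.00, edgeR adjusted p = 0.996), none of which passed. The list also holds Zbed3, at 782 and 598 against 1346 and 1004 reads (0.73, edgeR adjusted p = 0.0574), which did not pass. Padi6, also listed, had 0 and 5 against 3 and 6 reads and was not tested.

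Germ cell markers lay lower in shYthdf2 alongside Nlrp4c, Nlrp4f and Pramel3. Ddx4, Dazl, Sycp3 and Mael summed to 465 and 364 CPM in shScramble and to 327 and 197 CPM in shYthdf2. Mael, a factor of the piRNA pathway, fell from 1730 and 1733 reads to 1079 and 1031 (log2 fold change -0.77, SE 0.13, edgeR adjusted p = 0.0161), and the other 3 had log2 fold changes of -0.47 to -0.77 and adjusted p-values of 0.141 to 0.181. Their part in the lower Nlrp and Prame rows was not tested. Primitive endoderm markers (Gata6, Gata4, Sox17 and Pdgfra) summed to 9.08 and 10.1 CPM in shScramble and to 10.8 and 6.43 in shYthdf2, and fibroblast markers (Col1a1, Col1a2, Col3a1, Thy1, Dcn and Lum) to 17.2 and 17.8 against 9.42 and 15.7, with Dcn at 0. None of the 7 of these genes that could be tested passed.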

How the data were processed

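The authors deposited 1 table of raw counts per gene for 4 libraries. Per the file headers it was made with featureCounts version 2.0.3 over RefSeq exons of mm10, and the submitters' processing notes name fastp version 0.19.4, HISAT2 version 2.2.1 and DESeq2 version 1.40.2. Reads and not read pairs were counted, which doubles most counts without adding molecules, strand was ignored in stranded libraries, and reads placed at several positions were left out, which lowers the counts of recent copies.

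Groups and replicate numbers came from the sample titles. The members and lists were chosen with earlier results of these data known. The named rows are members with an adjusted or unadjusted p under 0.05, the 3 most abundant rows of each family, the 10 genes taken by full name, and other rows given for their values. edgeR version 4.0.16 (R version 4.3.3; TMM, filterByExpr with a minimum count of 10 and a minimum total of 15, quasi-likelihood F test, two-sided, no covariate) was fitted to all rows, with DESeq2 version 1.42.0 as an alternative. The coefficient of biological variation was 15.8%. p-values measure the spread between these libraries, which the methods call independent replicates. Limits from 3 reads cover counting error only and are too narrow, since the reads of a pair were counted separately. Windows of 150 bases were compared for the 73 of 123 members matched to GENCODE vM21 transcripts, and promoters came from the RefSeq table. Protein sequences were not used here. Deviations from the group means correlated at 0.23 between same-numbered libraries. With 2 libraries a group, both pairs give this same value by construction, so they are not separate evidence. No label ties the numbers to a batch.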

Additional observations from a re-analysis of the deposited data

How the results depend on the processing

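Zp3 and Pramel3 passed in all 12 other settings and Nlrp4c and Nlrp4f in 11 of 12, while Pramel19 passed in 9 of 12. The members called higher (2) and lower (3) were 1 and 3 with library totals, 12 and 4 with no filter, 5 and 3 with DESeq2, 7 and 2 by the study's criteria, and 4 to 10 and 3 to 6 when a library was left out. With the replicate number as a block they were 15 and 5, but the libraries share only a number. Of single rows, Pramel12 (-0.18) turned to 0.086 without shYthdf2 replicate 2, with a range of -0.51 to 0.086 over the omissions, and Pramel6 (0.51) to -0.035 without shYthdf2 replicate 1, with a range of -0.035 to 1.11. The log2 ratio of the Prame total (0.28) was 0.45 without its most abundant row, 0.45 without rows that also lie on another contig (Pramel12 among them), 0.53 per kilobase and 0.15 to 0.41 with a library left out. The Nlrp4 total (-0.91) was -0.52 without Nlrp4c, and -1.22 to -0.65 with a library left out. The Obox total (0.36) was 2.63 without Obox6, -0.15 without shScramble replicate 1, -0.08 without shYthdf2 replicate 2 and -0.15 to 1.15 over the omissions. The other Nlrp total (-0.23) was 0.87 without Nlrp14, 0.017 without shScramble replicate 1 and -0.44 to 0.017 over the omissions, and the single-gene total (1.75) was 1.40 to 2.21. RLE scaling moved none of these by more than the spread between replicates. Leaving out rows or libraries changes what is summed; the cause of the other shifts was not tested. Depth limits the rows under 3 reads, and 2 libraries a group limit all.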
